A study of Mus musculus with 4 samples.

Results

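Expression of 9 genes that make, move and use citrate and isocitrate was followed through the prostate of normal mice and tumours of the TRAMP model: Cs, Aco1, Acly, Slc25a1, Idh1, Idh2, Idh3a, Idh3b and Idh3g. They were chosen by name, for citrate handling and 2-oxoglutarate production, and all 9 were found among the 24319 gene names of the tables. The series holds 4 RNA-seq libraries, 2 of normal prostate and 2 of tumour, and asks about TET dioxygenases, which use 2-oxoglutarate as co-substrate. The normal prostates came from wild-type F1 males of C57BL/6 and FVB parents at 22 weeks. The tumours came from F1 males of the same 2 strains that were heterozygous for SV40 T antigen under the rat probasin promoter, labelled late stage at 24 weeks, with 24 to 28 weeks in the labels' protocols. That promoter is active in prostate epithelium. Age differs with the groups and cannot be told apart from them, and the labels name neither the prostate lobes taken nor separate mice for the tumours.

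In the mitochondrion, citrate synthase joins acetyl-CoA and oxaloacetate into citrate, citrate is rearranged into isocitrate, and isocitrate dehydrogenases oxidise isocitrate to 2-oxoglutarate. Citrate can instead leave through the carrier Slc25a1 and be cut by Acly in the cytosol into acetyl-CoA for fatty acid and sterol synthesis and for acetylation. The prostate is known for secreting citrate into its fluid.

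Levels are FPKM (fragments normalised for transcript length and for the mapped fragments of the library) divided by a median-of-ratios factor per library, called scaled FPKM here. Scaling shifted the tumours down by 0.94 on the log2 scale relative to the normal prostates. Fold changes are tumour minus normal on log2(scaled FPKM + 1), from limma over 13162 genes with Benjamini-Hochberg adjustment and a threshold of 0.05. Each group has 2 libraries, so an exact permutation test could not give a two-sided p below 0.33 and was not used for single values. The libraries held 986717 and 1580686 implied fragments in normal prostate and 1435619 and 1143599 in the tumours, estimated from the widths of the deposited Cufflinks intervals. Behind single values of the 9 genes stood 17.0 to 405 implied fragments. The lowest number was that of Idh3a in normal 1, and the intervals quoted below are the deposited ones, scaled in the same way.

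The groups differed in their cell type markers. Summed scaled FPKM of 7 neuroendocrine markers was 0.408 and 0.914 in normal prostate and 579 and 815 in the tumours. By limma 7 of 7 rose, against 9.85% of all genes called higher. All 7 were below the minimum FPKM of 1 in both normal libraries, so they entered the test through the tumours alone and had to differ. Of 6 prostate secretory markers 4 fell, against 8.27% of all genes called lower. The sum of the 6 went from 445369 and 520346 to 3.56 and 2816, with 3 of the 6 at 0 in tumour 1. The 5 luminal markers summed to 1703 and 2036 in normal prostate and to 316 and 1095 in the tumours, and 0 of 5 passed. Hoxb13 held 295 of the sum in tumour 1, where Krt8 (0.258), Krt18 (0.345) and Cdh1 (0) were at or near 0, while Krt8 in tumour 2 was 438 against 178 and 191 in the normal prostates. The 4 basal markers summed to 72.8 and 71.1 in normal prostate, and all 4 were listed at 0 in tumour 1. In tumour 2 they summed to 24.6, of which Krt15 held 19.5. Smooth muscle markers summed to 579 and 539 against 3.86 and 104, and proliferation markers to 8.24 and 6.22 against 655 and 365. Macrophage markers summed to 5.80 and 4.49 against 109 and 249, of which Lyz2 held 94.2 and 206 in the tumours. Adgre1 (1.36) and Csf1r (0.787) were lower in tumour 1 than in both normal prostates (2.75 and 1.45, 3.04 and 1.20). The 4 seminal vesicle markers were listed at 0 in every library. In bulk tissue, fewer cells of a type and less RNA per cell cannot be told apart, and the part of these cell types in the values below was not tested.

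Of the 9 genes, Idh3a rose, Slc25a1 fell and 7 did not pass, while 4 had an unadjusted p under 0.05. That level was met by 2830 genes higher and 2412 lower of the 13162 tested, so 4 of 9 lies near the background. Over all genes tested 9.85% were called higher and 8.27% lower, so 1 call in each direction among 9 lies near the background. With FPKM as deposited 5 of the 9 were called higher and 0 lower, against 28.0% and 3.24% of all genes. An unadjusted p under 0.05 was then met by 5 of the 9, against 5498 genes higher and 859 lower of 13162. The median fold change of all genes with FPKM as deposited was 0.86 in place of 0.07. Scaling to the sum without abundant genes gave 3 higher and 0 lower (all genes 19.3% and 4.21%), and the fits without tumour 1 and without tumour 2 each gave 3 and 1 (11.6% and 20%, 19.7% and 30.8%). Quantile normalization (6.91% and 6.18%), no trend (9.19% and 6.4%) and voom (7.95% and 7.51%) each gave 1 and 0, a pseudocount of 0.1 (9.92% and 6.18%) gave 1 and 1, and no filter (1.44% and 1.46%) gave 0 and 0. The groups did not overlap in 6 of the 9 genes. For Idh3a, Cs and Acly both tumour values exceeded both normal values, and Slc25a1, Aco1 and Idh2 were lower in both. Over all genes tested, 37.7% were apart in the higher and 33.3% in the lower direction. The median log2 fold change was 0.17 for the 9 genes and 0.07 for all genes tested. All 9 had a deposited FPKM above the minimum of 1 in all 4 libraries, so none entered the test through 1 group alone.

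**Figure D1:**
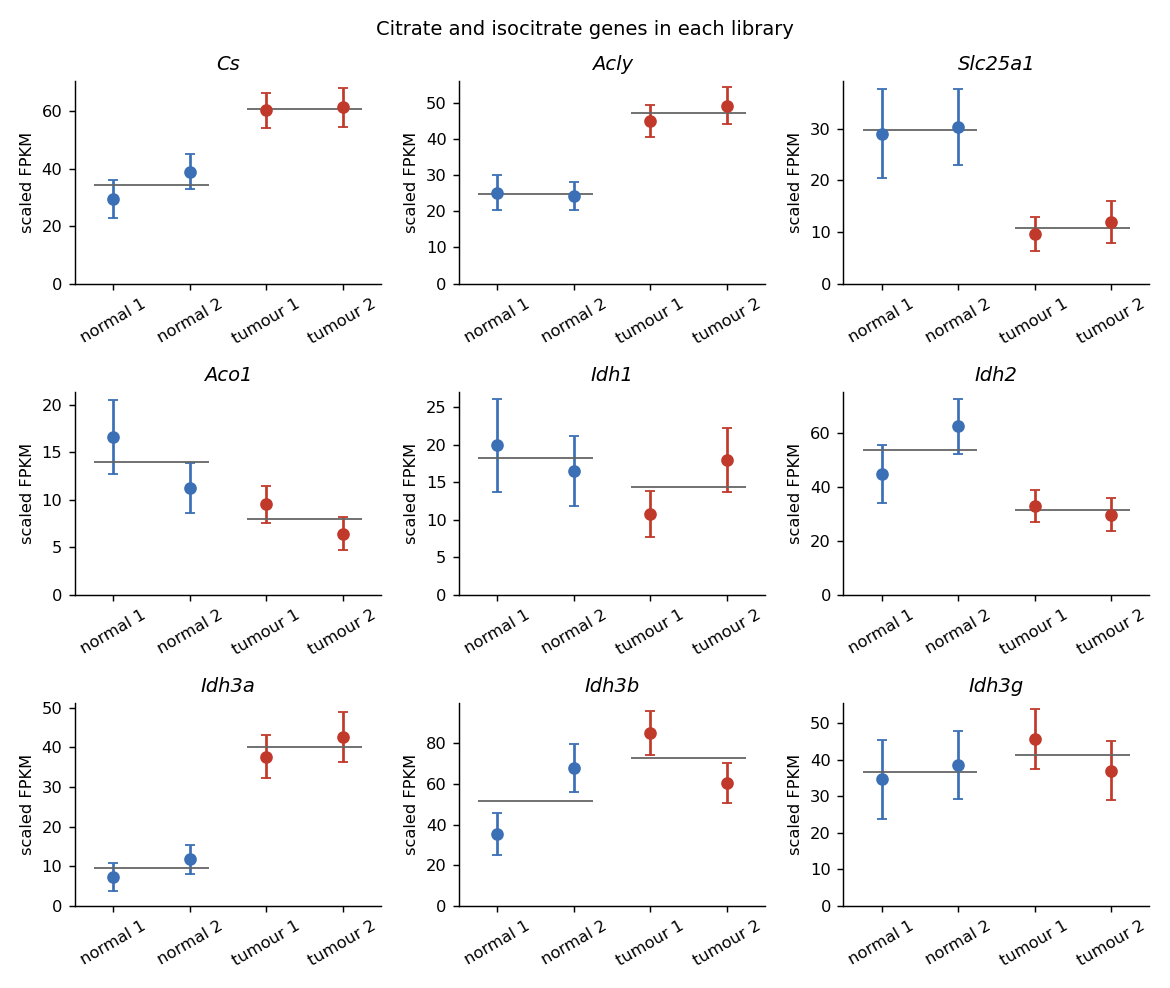
Scaled FPKM of the 9 genes (y axis, linear from 0) in normal 1, normal 2, tumour 1 and tumour 2 (x axis). Points are libraries, vertical bars the deposited Cufflinks intervals scaled alike, and horizontal lines group means. Idh3a lies at 7.19 and 11.7 in the normal libraries and at 37.6 and 42.6 in the tumours, while Slc25a1 goes from 29.0 and 30.3 to 9.52 and 11.9.

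Cs encodes citrate synthase, which makes the citrate (chromosome 10, 128337832 to 128362479, GRCm38). Its scaled FPKM was 29.4 in normal 1, 38.9 in normal 2, 60.3 in tumour 1 and 61.5 in tumour 2. Both tumours lay above both normal prostates, and the tumour values were close to each other. The log2 fold change was 0.83 (SE 0.28, limma adjusted p = 0.0977), a ratio of 1.78 with a 95% interval of 1.07 to 2.95, and it did not pass. With FPKM as deposited it passed (1.75, adjusted p = 0.0206). Of the 50-base stretches of its longest transcript 4% also occur in Csl, a close relative, but Csl was listed at 0 in 3 libraries and at 0.416 in tumour 2.

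Slc25a1 encodes the carrier that exports citrate from the mitochondrion in exchange for malate (chromosome 16, 17925211 to 17928219). It lay at 29.0 and 30.3 in the normal prostates and at 9.52 and 11.9 in the tumours. The normal values were nearly equal, and the highest tumour interval reached 15.9, below the lowest normal interval at 20.4. The level fell by 1.40 on the log2 scale (SE 0.31, limma adjusted p = 0.0445), 2.64-fold lower in the tumours. The call was lost in 8 of 11 alternatives: with FPKM as deposited (-0.51), with scaling to the sum without abundant genes (-0.78), with quantile normalization, without the intensity trend, without the filter on low values, with voom, and without normal 1 or normal 2. Relative to the median of all genes, the change lay between -1.56 and -1.14 under every setting run. These values rest on 33.4 to 68.7 implied fragments.

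Acly encodes ATP citrate lyase, which cuts exported citrate into acetyl-CoA and oxaloacetate (chromosome 11, 100476352 to 100528000). It lay at 25.1 and 24.2 in the normal prostates and at 44.8 and 49.2 in the tumours. The groups did not overlap, and the direction was opposite to that of Slc25a1, the gene of the carrier that supplies the substrate. The log2 fold change of 0.90 (SE 0.27, limma adjusted p = 0.0745) did not pass, with a 95% interval of the ratio of 1.16 to 3.02. With FPKM as deposited it passed (1.82, adjusted p = 0.0217). Cs and Acly also passed with scaling to the sum without abundant genes, and without tumour 1 or tumour 2.

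Because Cs, Acly and Slc25a1 act in sequence yet differed in direction, their promoters are shown for comparison. Each line gives the 250 bases before the RefSeq start (GRCm38.p6), 5′ to 3′ on the strand of the gene, in which capitals mark the GC box GGGCGG, the CCAAT box and the E-box CACGTG, each read on either strand. RefSeq promoters were matched for 8 of the 9 genes, all but Idh3a.
Slc25a1: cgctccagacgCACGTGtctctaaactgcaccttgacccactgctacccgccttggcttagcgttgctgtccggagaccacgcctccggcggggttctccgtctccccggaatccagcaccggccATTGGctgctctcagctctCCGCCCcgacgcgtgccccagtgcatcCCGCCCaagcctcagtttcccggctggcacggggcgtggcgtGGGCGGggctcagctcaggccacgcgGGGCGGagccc
Acly: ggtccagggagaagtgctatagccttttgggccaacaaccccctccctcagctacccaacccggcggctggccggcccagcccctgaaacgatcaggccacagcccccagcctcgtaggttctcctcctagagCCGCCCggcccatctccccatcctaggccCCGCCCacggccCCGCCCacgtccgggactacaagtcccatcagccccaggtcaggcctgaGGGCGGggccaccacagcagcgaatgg
Cs: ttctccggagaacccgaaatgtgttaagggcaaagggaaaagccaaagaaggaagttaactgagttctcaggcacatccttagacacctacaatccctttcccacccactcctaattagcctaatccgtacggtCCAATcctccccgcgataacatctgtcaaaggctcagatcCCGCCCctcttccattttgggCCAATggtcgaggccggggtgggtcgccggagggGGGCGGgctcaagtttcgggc

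The lines come from chr16:17928220-17928469 on the minus strand, chr11:100528001-100528250 on the minus strand and chr10:128337477-128337726 on the plus strand. The windows of Slc25a1 and Acly adjoin the gene positions given above. That of Cs ends at 128337726 and does not reach the deposited start of 128337832, since the RefSeq start lies upstream of it. The GC box GGGCGG was found 4 times before Slc25a1, 4 times before Acly and 2 times before Cs. It occurs in 32.9% of 27025 promoters of the same length. CCAAT was found 1 time before Slc25a1 and 2 times before Cs but not before Acly (34.5% of promoters), and the E-box CACGTG was found 1 time, before Slc25a1 (6.05%). None of these matches overlapped another. The cyclic AMP response element TGACGTCA, present in 1.62% of promoters, was in none of the 3 windows on either strand. The same held for the oestrogen-related receptor site TCAAGGTCA (0.366%) and for the sterol regulatory element TCACNCCAC (1.04%). These are matches of letters, not measured binding.

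Aco1 encodes the cytosolic aconitase, which interconverts citrate and isocitrate and, when it loses its iron-sulphur cluster, binds iron-responsive elements in RNA (chromosome 4, 40143265 to 40199009). It lay at 16.6 and 11.3 in the normal prostates and at 9.53 and 6.44 in the tumours. Both tumours were lower, but the normal libraries differed from each other by more than normal 2 differed from tumour 1. The log2 fold change was -0.73 (SE 0.41, limma adjusted p = 0.240) and its sign turned with FPKM as deposited (0.12). None of 9 tested of 10 listed genes of iron regulation passed, while 4 had an unadjusted p under 0.05. Over all 13162 genes tested, 2830 higher and 2412 lower met that level. The iron genes had a median fold change of 0.18. With voom 1 was called lower (7.51% of all genes) and with FPKM as deposited 4 were called higher (28.0%). Without tumour 2 the limma calls were 2 higher and 3 lower of 8 (19.7% and 30.8% of all genes). Among them, Ireb2, the other iron-responsive element binding protein, lay at 15 and 15.4 in the normal prostates and at 23.2 and 18.3 in the tumours (0.41, SE 0.31, adjusted p = 0.367).

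IDH3 is the NAD-dependent isocitrate dehydrogenase of the mitochondrial cycle, built from a catalytic alpha subunit (Idh3a) and from beta (Idh3b) and gamma (Idh3g) subunits. Idh3a (chromosome 9, 54586511 to 54604662) lay at 7.19 in normal 1, 11.7 in normal 2, 37.6 in tumour 1 and 42.6 in tumour 2. The groups were wide apart: the highest normal interval ended at 15.4 and the lowest tumour interval began at 32.3. The level rose 4.02-fold (log2 fold change 2.01, SE 0.36, limma adjusted p = 0.0318), with a 95% interval of 2.1 to 7.68. Under the 4 scalings run the fold change lay between 2.01 and 2.89. The call did not hold with all genes kept (no filter, adjusted p = 0.0551) and without normal 1 (1.64, adjusted p = 0.226) or normal 2 (2.31, adjusted p = 0.185), when limma called 0 genes in all, with 1338 higher and 1096 lower at an unadjusted p under 0.05 without normal 1.

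Idh3b (chromosome 2, 130279309 to 130284451) lay at 35.3 and 67.9 in the normal prostates and at 85.1 and 60.3 in the tumours. The groups overlapped, since normal 2 was above tumour 2, and the intervals of the normal libraries, 25 to 45.6 and 56.0 to 79.8, did not meet. The log2 fold change was 0.54 (SE 0.41, limma adjusted p = 0.374). Idh3b overlaps exons of Nop56, a nucleolar ribonucleoprotein gene on the opposite strand, at 30.8 and 26.6 in normal prostate and 102.6 and 62.3 in the tumours. The sources used here do not say if strand was used in counting, and the part of Nop56 in the Idh3b values was not tested. Idh3g (chromosome X, 73778963 to 73786897) lay at 34.6 and 38.5 against 45.7 and 37.0, with overlapping groups, a fold change of 0.17 (SE 0.28, adjusted p = 0.681) and a 95% interval of the ratio of 0.680 to 1.86. With FPKM as deposited Idh3b (1.47, adjusted p = 0.0408) and Idh3g (1.09, adjusted p = 0.0392) were called higher. The longest stretch that the transcripts of any pair of the 3 subunits share is 17 bases, and none of the 3 shares a 50-base stretch with another gene.

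Idh3a had the lowest level of the 3 subunits in both normal prostates and in tumour 1, and a level above that of Idh3g in tumour 2. The intervals of Idh3a and Idh3g overlapped in both tumours, so their order there is not resolved. It made up 9.32% and 9.93% of the summed scaled FPKM of the 3 subunits in normal prostate and 22.3% and 30.4% in the tumours. The Idh3g share was 44.9% and 32.6% against 27.1% and 26.5%, and the Idh3b share was 45.8% and 57.5% against 50.5% and 43.1%.

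The NADP-dependent enzymes make 2-oxoglutarate and NADPH, Idh1 in the cytosol and peroxisome and Idh2 in the mitochondrion. Idh2 (chromosome 7, 80094847 to 80115350) lay at 45.0 and 62.6 in the normal prostates and at 33.0 and 29.8 in the tumours. Both tumours were below both normal prostates, yet the fold change of -0.74 (SE 0.30, limma adjusted p = 0.138) did not pass and was 0.18 with FPKM as deposited. Idh1 (chromosome 1, 65158616 to 65186479), which the tables list with 2 groups of start sites, lay at 19.9 and 16.5 against 10.8 and 17.9. Tumour 2 lay within the normal range and tumour 1 below it. Its fold change was -0.36 (SE 0.38, adjusted p = 0.522), and it was positive with FPKM as deposited (0.53), with scaling to the sum without abundant genes (0.26) and without tumour 1 (0.06). Of the summed scaled FPKM of the 5 IDH genes, Idh2 held 31.7% in both normal prostates and 15.6% and 15.9% in the tumours. Of 10 tested genes of NADPH production and linked folate metabolism, 1 fell and 9 did not pass, near the 8.27% of all genes called lower. Their median fold change was 0.33. The one was Pgd of the pentose phosphate pathway, at 70.2 and 83.9 against 21.0 and 34.1 (-1.48, SE 0.34, adjusted p = 0.0472).

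**Figure D2:**
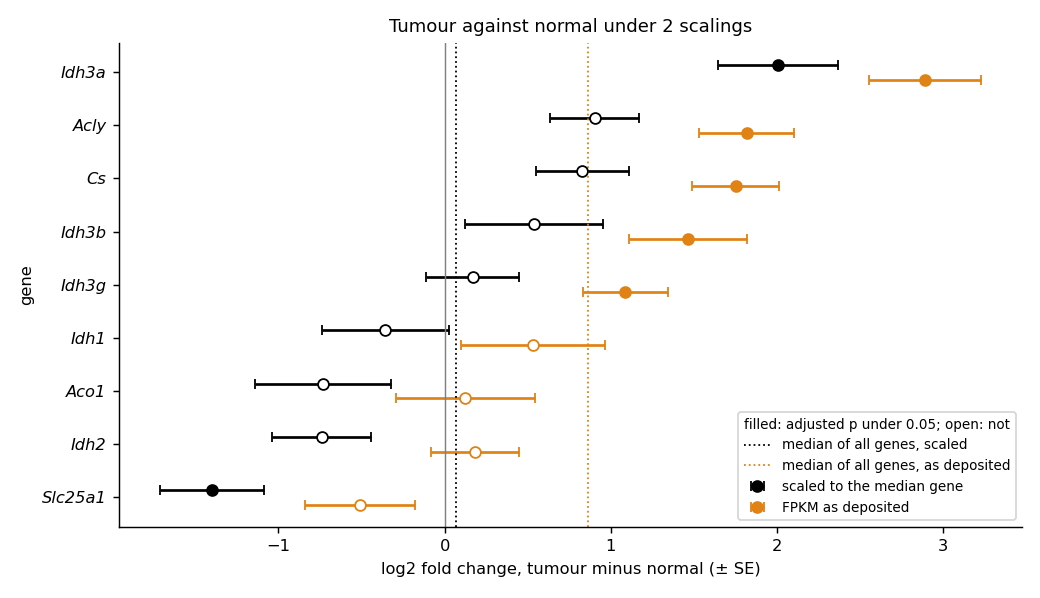
Log2 fold change of each gene, tumour minus normal (x axis, bars ± SE), with FPKM scaled to the median gene in black and as deposited in orange. Filled points have an adjusted p under 0.05 and dotted lines are the medians of all genes, 0.07 and 0.86. Idh3a is at the high end and Slc25a1 at the low end under both scalings.

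Ratios between genes within a library do not depend on scaling between libraries. Slc25a1 over Cs was 0.986 and 0.780 in normal prostate against 0.158 and 0.193 in the tumours, 5.03-fold lower. Acly over Slc25a1 was 0.866 and 0.797 against 4.71 and 4.15, 5.32-fold higher, so the cleaving enzyme and the carrier were at similar levels in normal prostate and far apart in both tumours. Acly over Cs was 0.854 and 0.622 against 0.743 and 0.801, with overlapping groups.

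Idh3a over Cs was 0.244 and 0.302 in normal prostate against 0.623 and 0.693 in the tumours. Idh3a over Idh3b was 0.204 and 0.173 against 0.442 and 0.707, and Idh3a over Idh3g was 0.208 and 0.305 against 0.823 and 1.15. All 3 ratios with Idh3a were apart between the groups, by 2.42-fold, 2.98-fold and 3.87-fold. Aco1 over Cs was 0.565 and 0.289 against 0.158 and 0.105, also apart. Idh3b over Idh3g (1.02 and 1.76 against 1.86 and 1.63) and Idh2 over Idh1 (2.26 and 3.79 against 3.06 and 1.66) overlapped. Of the 9 planned ratios 6 were apart between the groups. Among single genes tested, 37.7% were apart in the higher and 33.3% in the lower direction. The share among ratios of other gene pairs was not computed, so 6 of 9 has no background of its own kind. Pairs share genes and libraries, and the ratios are given as values and were not tested.

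**Figure D3:**
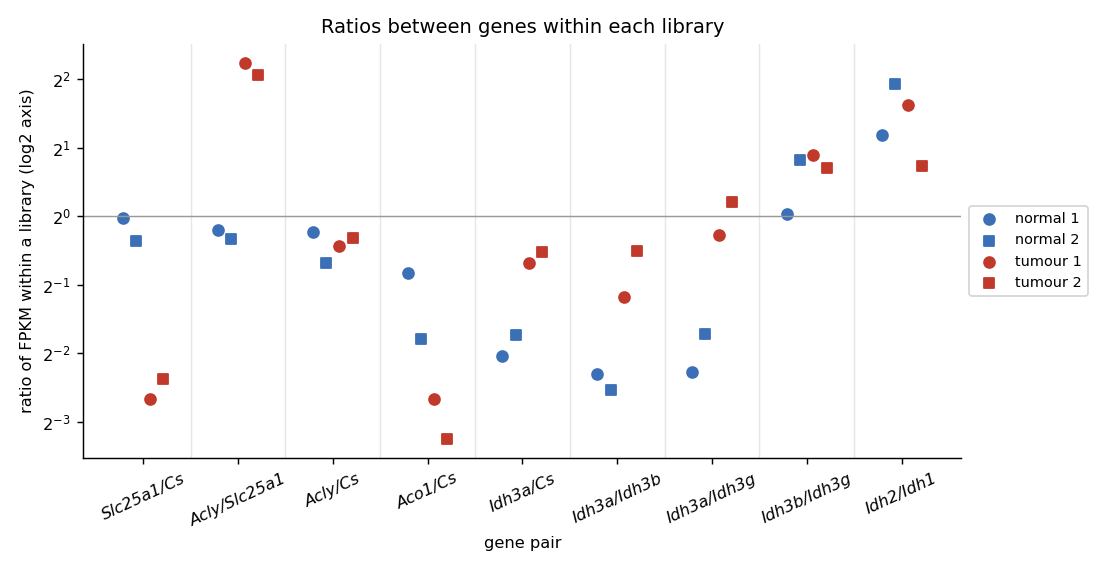
Ratio of FPKM between pairs of genes (x axis) within each library (y axis, log2 scale). Blue points are normal prostates and red points tumours. Acly over Slc25a1 goes from 0.866 and 0.797 to 4.71 and 4.15, and the ratios with Idh3a as first gene are higher in both tumours.

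The order of levels, which FPKM allows since it is per length, differed between the groups. In normal 1 Idh2 was highest at 45.0, with overlapping intervals from each gene to the next down to Aco1, and Idh3a alone was below its neighbour. In normal 2 Idh3b and Idh2 overlapped at the top and were clear of Cs, and Idh3a and Aco1 overlapped at the bottom. In tumour 1 Idh3b was clear of Cs, and Cs of Idh3g. In tumour 2 Cs and Idh3b overlapped at the top. In both tumours Idh1, Aco1 and Slc25a1 were the 3 lowest, clear of Idh2 above them. Ranked among all genes tested, Idh3a went from the 49.3 and 61.5 percentile in normal prostate to 87.4 and 89.9 in the tumours. Slc25a1 went from 81.0 and 81.3 to 54.3 and 62.5.

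Of 13 other genes of the tricarboxylic acid cycle 0 rose and 0 fell by limma, with 1 unadjusted p under 0.05 and a median fold change of 0.10. That unadjusted level was met by 2830 genes higher and 2412 lower of the 13162 tested, a larger share than 1 of 13. Of all genes 9.85% were called higher and 8.27% lower, so few calls separate 0 of 13 from the background. With voom on the implied fragments 0 were called. With FPKM as deposited 6 were called higher, against 28.0% of all genes, and the fit without tumour 2 called 2 higher and 2 lower, against 19.7% and 30.8%. Ogdh, which encodes the first component of the complex that consumes 2-oxoglutarate, lay at 28.2 and 25.9 against 22.9 and 32.5 (0.02, SE 0.32, adjusted p = 0.976).

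Of 13 tested of 14 listed genes that bring pyruvate into the mitochondrion and the cycle, 1 rose, 2 fell and 10 did not pass, with a median of -0.16. These counts lie near the shares of all genes, 9.85% higher and 8.27% lower. Mpc1, a subunit of the mitochondrial pyruvate carrier, lay at 257 and 321 in the normal prostates and at 34.6 and 32.4 in the tumours. It fell by 3.07 (SE 0.25, limma adjusted p = 0.0195) and overlaps exons of 4930506C21Rik on the opposite strand. Pdk2, a kinase that inhibits pyruvate dehydrogenase, went from 52.0 and 46.2 to 5.01 and 15.1 and fell by 2.35 (SE 0.54, adjusted p = 0.0472). Pdp1, the phosphatase that opposes such kinases, went from 0.708 and 2.95 to 15 and 11.1 and rose by 2.42 (SE 0.56, adjusted p = 0.0476).

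Of 16 tested genes of glutamate and 2-oxoglutarate, 3 rose, 4 fell and 9 did not pass, with a median of -0.07, against 9.85% called higher and 8.27% lower of all genes. The 3 and 4 include genes that entered the test through 1 group alone and so had to differ. Ogdhl, a relative of Ogdh, went from 0.287 in normal 1 and 0 in normal 2 to 8.40 in tumour 1 and 7.64 in tumour 2 (limma adjusted p = 0.0219). Bcat1, the cytosolic branched-chain aminotransferase, had a listed value of 0 in each normal library, 12.6 in tumour 1 and 3.37 in tumour 2 (adjusted p = 0.0428). Both entered through the tumours alone, and Adhfe1 through the normal prostates alone. Bcat2, the mitochondrial branched-chain aminotransferase, went from 119 and 149 to 5.75 and 17.2 and fell by 3.59 (SE 0.54, adjusted p = 0.0251). Psat1, which makes 2-oxoglutarate in serine synthesis, rose by 2.19 (SE 0.52, adjusted p = 0.0497). Adhfe1, a mitochondrial oxidoreductase that couples hydroxybutyrate to 2-oxoglutarate, fell by 2.81 (SE 0.38, adjusted p = 0.0223), and Gpt2, the mitochondrial alanine aminotransferase, fell by 2.07 (SE 0.33, adjusted p = 0.0269). Bcat1, Bcat2 and Adhfe1 overlap exons of Gm26666, 0610005C13Rik and 2610203C22Rik, respectively, on the opposite strand. Glud1, glutamate dehydrogenase, lay at 18.1 and 24.5 against 17.8 and 17.8 (adjusted p = 0.614), with a positive sign in place of a negative one with FPKM as deposited (0.66) and with scaling to the sum without abundant genes (0.39).

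Among 13 tested of 18 listed genes that use or carry citrate and its products, 1 rose and 12 did not pass, with a median of -0.06, near the 9.85% of all genes called higher. Slc25a12, a mitochondrial aspartate-glutamate carrier, rose by 1.5 (SE 0.32, limma adjusted p = 0.0420) from 7.87 and 6.95 to 22.2 and 23.4. Fasn, the fatty acid synthase downstream of Acly, lay at 16.1 and 13.2 against 31.1 and 25.8 (0.91, SE 0.31, adjusted p = 0.1). The calls of the genes named from these lists were lost without normal 1 or normal 2, except that of Adhfe1, which was then not tested, and without the filter on low values, except that of Mpc1. With FPKM as deposited the calls of Pdk2, Gpt2 and Pgd were also lost, with voom those of Pdp1, Psat1 and Slc25a12, and with quantile normalization those of Pdk2, Pdp1, Bcat1, Psat1 and Pgd. Scaling to the sum without abundant genes ended those of Pdk2 and Pgd, a pseudocount of 0.1 those of Pdp1, Pdk2, Psat1 and Pgd, and no trend those of Pdk2, Psat1 and Pgd.

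**Figure D4:**
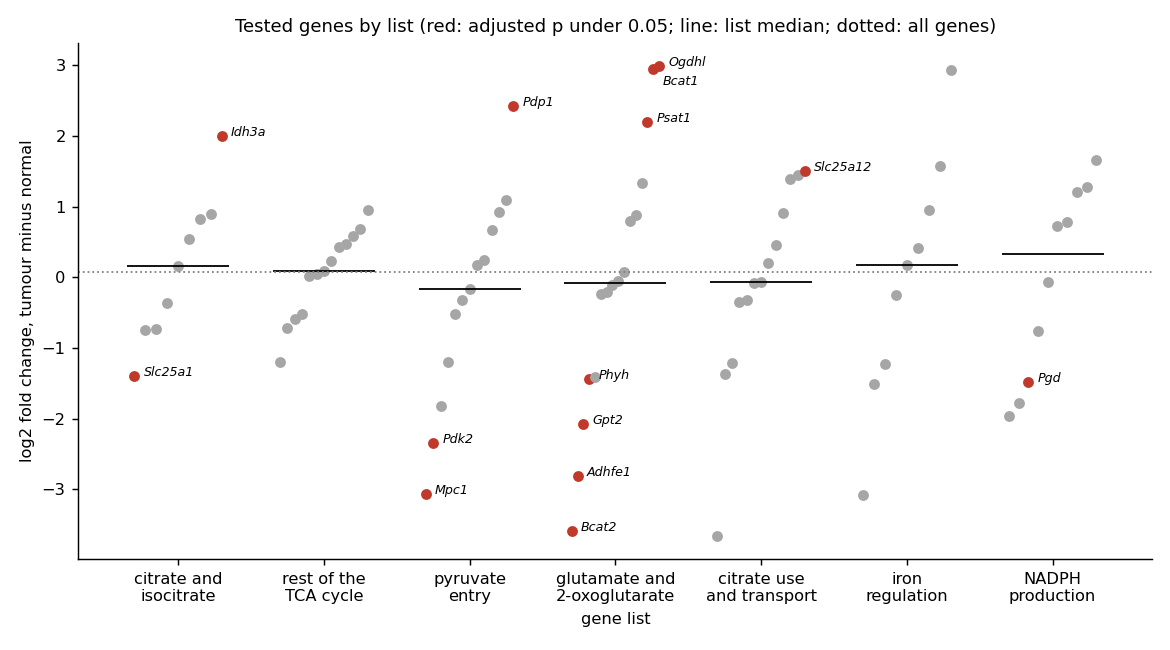
Log2 fold change, tumour minus normal (y axis), of every tested gene in 7 lists (x axis). Red points have an adjusted p under 0.05, black lines are list medians and the dotted line is the median of all genes, 0.07. Idh3a and Slc25a1 are the outermost of the 9 citrate and isocitrate genes, and the list of the rest of the cycle has no red point.

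Over the 4 libraries, the 3 genes closest to Idh3a by Euclidean distance of centred log2 values, among 81 that comprise the tested genes of the lists and the other 8 members, were Pdp1 (0.71), Slc25a12 (0.76) and the iron exporter gene Slc40a1 (0.84). Slc40a1 lay at 1.17 and 1.19 against 3.64 and 8.11 (limma adjusted p = 0.0847). Closest to Slc25a1 were Phyh (0.30), a peroxisomal 2-oxoglutarate dioxygenase, Pgd (0.31) and the iron importer gene Slc11a2 (0.53). Phyh lay at 101 and 107 against 39.3 and 35.9 and fell by 1.44 (SE 0.25, limma adjusted p = 0.0294), but did not pass in 6 alternatives: with FPKM as deposited, with the sum, with quantile normalization, without the filter and without normal 1 or normal 2. Slc11a2 lay at 21.6 and 17.9 against 4.25 and 9.10 (adjusted p = 0.0782) and overlaps exons of Gm5475 on the opposite strand. Only 4 libraries in 2 groups stand behind each distance.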

How the data were processed

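RNA of 2 normal prostates and 2 TRAMP tumours was sequenced from TruSeq V2 libraries on a NextSeq 500, per the labels' protocols. The deposited values are FPKM per gene. Per the submitters' processing notes, the tools were TopHat2 2.0.8, Cufflinks 2.1.1, Trim Galore and Cuffdiff 2.1.1, and the build was mm10 (GRCm38). The sources used here give no annotation, settings, use of strand or scaling. Of 24883 table rows, those of repeated names were summed and 27 with date-like names were left out.

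FPKM were divided by median-of-ratios factors over 11469 genes (0.793 and 0.689 for normal prostates, 1.34 and 1.50 for tumours). Genes reaching an FPKM of 1 before scaling in 2 or more libraries were fitted on log2(scaled FPKM + 1) with limma 3.58.1 in R 4.3.3, with an intensity trend and Benjamini-Hochberg adjustment. A fold change on this scale understates that of low genes. The code was tested on simulated data. FPKM hold no counts; implied fragments were estimated by taking each deposited interval as 2 SD of a Poisson count on either side, and among low values of genes with a single start group 71.0% to 72.5% came within 0.1 of a whole number, so they are approximate. The p-values set the group difference against the spread between libraries, which limma moderates towards a trend over all genes (2 residual and 2.85 prior degrees of freedom). Since nothing states that the tumours came from separate mice, that spread need not be the spread between mice. Replicate numbers were given in accession order and pair nothing.

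The members and lists were chosen with earlier results of these data known. Named genes were the 9 members, a few set genes (Ogdh, Glud1, Fasn and Ireb2, while others are not reported here), at most 3 called genes per direction of each pathway list with the largest fold changes, and the 3 genes nearest to each called member among the lists and the other members. Of 15 marker lists, those for skeletal muscle (47.8 and 41.5 in normal prostate, 46.7 and 32.6 in tumours), fibroblasts (116 and 93.9, 43.4 and 331), endothelium (6.56 and 3.81, 1.51 and 23.0), T and NK cells (2.15 and 1.33, 0.183 and 0), B and plasma cells (0 and 0, 0.652 and 6.14), adipocytes (12.7 and 14.3, 4.16 and 68.5) and red blood cells (40.3 and 23.2, 503 and 532) gave these summed scaled FPKM. Hba-a1 carried the red blood cell sum (31.3 and 19.1, 500.4 and 528), while Hbb-bs went from 6.91 and 0.0652 to 0.0292 and 0.0398. Fabp4 carried the adipocyte sum (12.7 and 14.3, 3.76 and 67.5), while Plin1 and Lep were listed at 0 in every library. Adipoq and Cidec were at 0 in both normal prostates, with Adipoq at 0.401 in tumour 1 and Cidec at 0.972 in tumour 2. Skeletal muscle markers went in opposite directions: Acta1 from 38.9 and 39.4 to 4.20 and 17.9, Myl1 from 1.51 and 0 to 39.6 and 9.48. Ckm, Myh4 and Tnnt3 lay at 6.14 or lower in every library. Dcn held most of the normal fibroblast sum (104 and 84.2) and lay at 5.45 and 111 in the tumours. Col1a1 (3.94 and 3.65, 12.7 and 81.0), Col3a1, Lum and Pdgfra were higher in both tumours. Alternatives were other scalings, a pseudocount of 0.1, no filter, no trend, voom on implied fragments and leaving out each library. Positions follow the deposited loci with 1 added to the start, since those starts lie 1 below RefSeq in most genes. Figures were drawn with matplotlib 3.10.9.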

Additional observations from a re-analysis of the deposited data

How the results depend on the processing

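Over the 9 genes and 11 alternatives, 73 of 99 fold changes kept their direction and side of the threshold, 10 gained a call, 11 lost one and 5 turned sign. Genes called higher and lower numbered 1296 and 1088. They were 3681 and 427 with FPKM as deposited, 2537 and 554 with scaling to the sum without genes above 1%, and 245 and 249 without the filter on low values. Leaving out a library gave 0 to 2170 higher and 0 to 3405 lower; the 0 came without normal 1 or normal 2, where a lone library is assumed to vary like the other group. Of the 9 genes, 1 was called higher, against 5 as deposited, 3 with the sum and 0 without the filter, with a range of 0 to 3 when a library was left out. The 1 called lower became 0 as deposited, with the sum, with quantile normalization, without the filter, without the trend and with voom, and ranged from 0 to 1 when a library was left out. The sign turned for Aco1 as deposited (0.12), for Idh1 as deposited (0.53), with the sum (0.26) and when a library was left out (-0.68 to 0.056), and for Idh2 as deposited (0.18). It also turned for Ogdh without normal 2 or tumour 2 (range -0.21 to 0.33) and for Glud1 as deposited (0.66) and with the sum (0.39). For ratios, leaving out a library gave -0.018 to 0.77 on the log2 scale for Idh3b over Idh3g, -0.82 to 0.065 for Idh2 over Idh1 and -0.15 to 0.31 for Acly over Cs. Acly over Slc25a1 was 2.30 with a pseudocount of 1, against 2.41. The causes were not tested. Each fit that left out a library had 1 residual degree of freedom, against 2 in the main fit, whether it called more genes or fewer. No paired analysis was possible because the replicate numbers were given in accession order. At 17.0 implied fragments Idh3a in normal 1 was the least precise value.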
